A study of Sus scrofa with 220 samples.

Results

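The genes examined here were those of the pig translation initiation and elongation factors, taken as every entry of the deposited tables whose Ensembl pig gene symbol begins with EIF or EEF and whose level in TPM, a read count scaled to gene length and to depth, was above 1 in at least 3 of the 220 cells. The gene name table paired 58 such symbols with pig identifiers. Of these, 39 had an entry in the tables and 38 passed the level rule, against 14721 of 22840 entries in the tables as a whole. The entry left out, EIF4E1B, had no count in any cell, and the other 19 symbols (EIF2S1, EIF4B, EIF3B, EIF3F, EIF6, EEF1A2 and EIF4EBP2 among them) had no entry and were not analysed here, nor were EEF1A1, EEF1G, EIF5 and EIF5A, which the name table did not pair with an identifier. The rule used no difference between labels.

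Translation of most mRNAs begins when the cap-binding complex eIF4F, made of the cap binder eIF4E, the helicase eIF4A and the scaffold eIF4G, recruits a small ribosomal subunit that already carries eIF3, eIF1 and initiator tRNA bound to eIF2. The subunit scans to a start codon under the control of eIF1, eIF2 releases its GDP and is recharged by eIF2B, and eIF5B joins the large subunit. Elongation then depends on eEF1, which brings aminoacyl-tRNA, and on eEF2, which moves the ribosome along. Cells adjust these steps through the eIF2 alpha kinases, the eIF4E binding proteins and the eEF2 kinase.

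The 220 cells came from 28 embryos of artificially inseminated pigs and were sequenced with Smart-seq2, a full-length method on polyadenylated RNA. They carried 7 cell type labels: morula (M, 47 cells of 8 embryos), inner cell mass (ICM, 24 of 7) and trophectoderm (TE, 28 of 10) of the early blastocyst, epiblast and hypoblast of the late blastocyst (LB EPI, 25 of 4, and LB HYPO, 36 of 5), and epiblast and hypoblast of the spherical embryo (Sph EPI, 48 of 4, and Sph HYPO, 12 of 3). Trophectoderm was not sampled after the early blastocyst, and late blastocyst cells were freed from it by immunosurgery. Each embryo was taken from the letters of the cell identifiers, and counts were summed per embryo and label into 41 sums, 6 of them of 1 cell, which stand in for replicates, since cells of an embryo share their source. Single values are listed by embryo in the order AN, AO, AP, AQ for LB EPI, AL, AM, AN, AO, AP for LB HYPO, C, D, E, F for Sph EPI and C, E, F for Sph HYPO, and longer groups by their lowest, highest and median embryo.

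Depth was 1012604 to 5696373 counts per cell with a median of 2006854, and the median number of genes per cell lay between 4939 in TE and 6558 in Sph EPI. The hypoblast markers summed to 784 to 2913 TPM in LB HYPO and 1135 to 3368 TPM in Sph HYPO embryos against 11.2 to 73.9 TPM in LB EPI and 10.99 to 25.3 TPM in Sph EPI, and the epiblast markers to at least 295 TPM in epiblast embryos against at most 174 TPM in hypoblast embryos. Trophectoderm markers had a median sum of 42614 TPM in TE, but 1 TE embryo, E6-ER, of a single cell, reached only 0.368 TPM and went against its label, so edgeR calls between TE and another label are given with and without it, while the TE ranges include it. The same 5 markers, KRT8, KRT18, GATA2, GATA3 and DAB2, summed to 17302 to 43066 TPM in Sph HYPO, against 1508 to 2511 TPM in LB HYPO. The paper lists DAB2 among its hypoblast genes, and the sum was not split by marker here. Whether trophectoderm cells were among the Sph HYPO cells was not tested.

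The levels of the 38 genes reached from a median of 0 TPM over the 41 sums for EIF4E3 and EEF2K to 2707 TPM for EIF4A1. On the scale of that median, 24 were above 100 TPM, 6 lay between 10 and 100 TPM and 8 were below 10 TPM. EIF4A1, EIF1, EIF4G2, EIF2S2 and EEF1B2 together took a median of 51.8% of the summed TPM of all 38, and between 37.7% and 64.5% in single sums. TPM above 1 was reached in at least 214 cells by 23 genes, in 169 to 207 cells by 5 genes, and in at most 133 cells by 10 genes. The 10 were EIF1AD, EIF2D, the 3 eIF2 alpha kinases measured, EIF3G, EIF4E3, EIF4G3, EIF4ENIF1 and EEF2K. The EIF3G entry held 189 counts in all and EIF4E3 158, so that levels of these genes are not interpreted further.

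**Figure D1:**
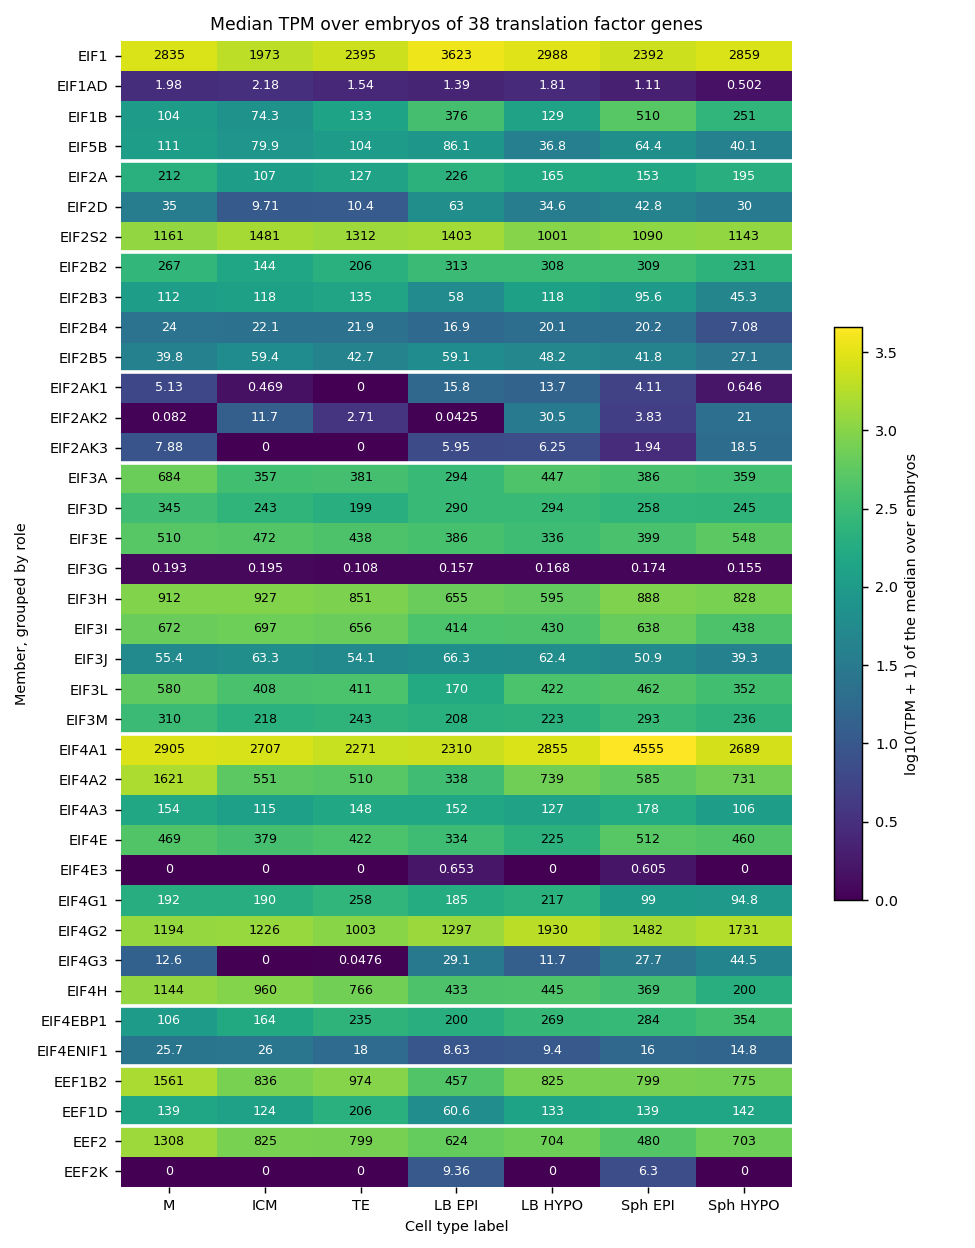
Median over embryos of the mean TPM of each of the 38 genes (rows, grouped by role and separated by white lines) in each of the 7 cell type labels (columns), with colour on a log10(TPM + 1) scale and the TPM printed in each cell. EIF4A1 and EIF1 were the 2 brightest rows throughout, EIF4A2 was at 1621 TPM in M and at most 739 TPM elsewhere, and EEF2K had a median above 0 only in the epiblast columns.

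The summed TPM of the 38 genes was 18343 to 22658 in M embryos with a median of 20156, and 14574 to 16777 in ICM embryos with a median of 15791. All 8 M embryos thus lay above all 7 ICM embryos. TE embryos spanned 13099.9 to 19781 TPM, LB EPI 14594 to 16639.6 TPM, LB HYPO 15294 to 19130.3 TPM, Sph EPI 15507 to 18719 TPM and Sph HYPO 12348 to 17969.9 TPM, and these 5 ranges overlapped each other. The sum is a description and was not tested.

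Across the 7 labels at once, 13 of the 38 genes (34.2%) passed an adjusted p of 0.05 in the edgeR fit, against 37.7% of all 14721 genes tested. The 13 were EIF4H, EIF1B, EIF3A, EIF4A2, EEF1B2, EIF4A1, EIF5B, EEF2, EIF4E, EIF4E3, EIF4G1, EIF3L and EIF4G3, in order of adjusted p, from 1.2e-05 for EIF4H to 0.0467 for EIF4G3. Of the 9 cap-binding and unwinding genes 7 were called. These 7 include EIF4E3, at 0 TPM in 37 of the 41 sums, and EIF4G3, whose call was kept in 19 of 48 alternatives. Of the 9 eIF3 genes 2 were called, of the 4 start codon and subunit joining genes 2, and 1 each of the pairs for eEF1 and for eEF2. None of the 3 eIF2 and initiator tRNA genes, 4 eIF2B genes, 3 eIF2 alpha kinases and 2 eIF4E binding proteins was called by edgeR. At an unadjusted p of 0.05 in edgeR the whole group held 17 of the 38 genes, beside 6738 of all 14721. DESeq2 called 14 of the 38 and limma on mean log2(TPM + 1) 16, against 20.2% and 32.6% of all genes. For the DESeq2 shares, here and below, all genes means the 11954 to 13267 genes, by comparison, to which it gave an adjusted p.

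The first comparison asked which factors differed between the morula and the first separated lineages. In M against ICM, 3 of 38 genes were called, all higher in M, where 1.03% of all genes were called higher in M and 2.74% in either direction. They were EIF4A2, EIF3A and EEF1B2, which DESeq2 and limma also called, each calling 3, against 8.09% and 5.18% of all genes. In M against TE, a comparison added after the data were seen and sharing the same M embryos, the 3 called were again EIF3A, EIF4A2 and EEF1B2, all higher in M, against 6.07% of all genes in either direction and 4.3% higher in M. DESeq2 and limma called EIF4EBP1 as well there, lower in M, against 8.68% and 5.07% of all genes. The median log2 fold change over the 38 genes was 0.28 in M against ICM and 0.29 in M against TE, beside 0.09 and 0.16 over all genes.

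EIF4A2 encodes a helicase of eIF4F closely related to EIF4A1. Its TPM was 1239 to 2075 (median 1621) in M, 186 to 978 (median 551) in ICM and 221 to 1627 (median 510.5) in TE embryos. Every M embryo lay above every ICM embryo, as for 1.68% of all genes in this comparison, and above all TE embryos but AI, which was at 1627 TPM while the next TE embryo was at 744 TPM. The log2 fold change was 1.53 (SE 0.35) in M against ICM, adjusted p = 0.00976, and 1.41 (SE 0.31) in M against TE, adjusted p = 0.00712 (1.30 without embryo E6-ER, adjusted p = 0.00869). Within the first 4 library pools M against ICM gave 1.86, adjusted p = 0.0152, and within the last 4 it gave 1.30, adjusted p = 0.146, while M against TE gave 1.59 and 1.30, with adjusted p of 0.0608 and 0.0682. In the later labels EIF4A2 was at 205, 470.3, 582 and 171 TPM in LB EPI and 1828, 1137, 739, 499 and 706.4 TPM in LB HYPO. Sph EPI embryos were at 409, 602, 568.1 and 613 TPM and Sph HYPO embryos at 642, 731 and 792 TPM. LB HYPO embryo AL, at 1828 TPM, was the only one of these 16 sums inside the M range, and it was 1 cell.

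EIF3A, the core subunit of eIF3, was at 399.5 to 1016 (median 684) TPM in M, 306 to 505.02 (median 357) TPM in ICM and 243 to 523 (median 381) TPM in TE embryos. The M range was the highest, with its lower embryos inside the ICM and TE ranges. The log2 fold change was 0.90 (SE 0.19) in M against ICM, adjusted p = 0.00581, and 0.86 (SE 0.17) in M against TE, adjusted p = 0.00372 (0.81 without embryo E6-ER, adjusted p = 0.00404). Within the first and the last 4 library pools M against ICM gave 1.14 and 0.76, with adjusted p of 0.12 and 0.123, and M against TE gave 0.88 and 0.76, with adjusted p of 0.189 and 0.0562. EIF3A was at 260.4, 335, 199.9 and 328 TPM in LB EPI and 447, 352, 516.96, 337 and 572 TPM in LB HYPO. In Sph EPI it was at 382, 391, 443 and 287 TPM and in Sph HYPO at 359, 443 and 252 TPM. All 5 LB HYPO embryos lay above the 4 LB EPI embryos, a difference that edgeR did not call (log2 fold change -0.76, SE 0.25, adjusted p = 0.138). Of all genes, 9.12% did not overlap between these labels.

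EEF1B2, the exchange factor that recharges eEF1A with GTP, was at 983 to 2179 (median 1561) TPM in M, 594 to 1481 (median 836) TPM in ICM and 441 to 1296 (median 974) TPM in TE embryos. ICM embryo AD stood at 1481 TPM, above the other ICM embryos, the next of which was at 952 TPM. The log2 fold change was 0.93 (SE 0.24) in M against ICM, adjusted p = 0.0274, and 0.88 (SE 0.22) in M against TE, adjusted p = 0.0188 (0.90 without embryo E6-ER, adjusted p = 0.0157). The call in M against ICM was near its threshold: it was lost when M embryo T or U, or ICM embryo AA, AC, AE, AF or AI was left out, at adjusted p between 0.0502 and 0.0627, and without TMM scaling, at 0.0589. Within the first 4 pools it gave 0.90, adjusted p = 0.147, and within the last 4 pools 1.28, adjusted p = 0.0315. The call in M against TE was lost in a fit of those labels alone, at adjusted p = 0.0583, and within the first 4 pools, at 0.166, but not within the last 4, at 0.0199. In the later labels EEF1B2 was at 393, 520.2, 384 and 600.1 TPM in LB EPI and 531, 825, 1154, 692 and 959 TPM in LB HYPO. The spherical embryos were at 876, 828, 739 and 770.4 TPM in Sph EPI and 668, 953 and 775 TPM in Sph HYPO, so that LB EPI had the lowest median and its embryos did not overlap those of Sph EPI, as for 8.08% of all genes.

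EEF2, the translocase, and EIF4E, the cap binder, had their higher medians in M than in ICM or TE without passing the threshold. EEF2 was at 846 to 2498 (median 1308) TPM in M, 504.9 to 1522 (median 825) TPM in ICM and 504.4 to 2115 (median 799) TPM in TE, with log2 fold changes of 0.78 (SE 0.24, adjusted p = 0.0578) and 0.62 (SE 0.21, adjusted p = 0.0642) in M against ICM and TE. Without TE embryo E6-ER, EEF2 passed in M against TE and the count there was 4, and without M embryo T the count was 5, with EEF2K and EIF4H added. The shares of all genes called in those fits are not given here. EEF2 was at 1063, 513, 413 and 734 TPM in LB EPI and 646, 817, 1191, 438 and 703.6 TPM in LB HYPO. At the spherical stage the values were 406, 476, 508.4 and 484 TPM in Sph EPI and 703.2, 896 and 677 TPM in Sph HYPO. The 3 hypoblast embryos lay above the 4 epiblast embryos, where 15.7% of all genes did not overlap. EIF4E had median TPM of 469 in M, 379 in ICM and 422 in TE, with a log2 fold change of 0.89 (SE 0.29) in M against ICM, adjusted p = 0.0694.

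**Figure D2:**
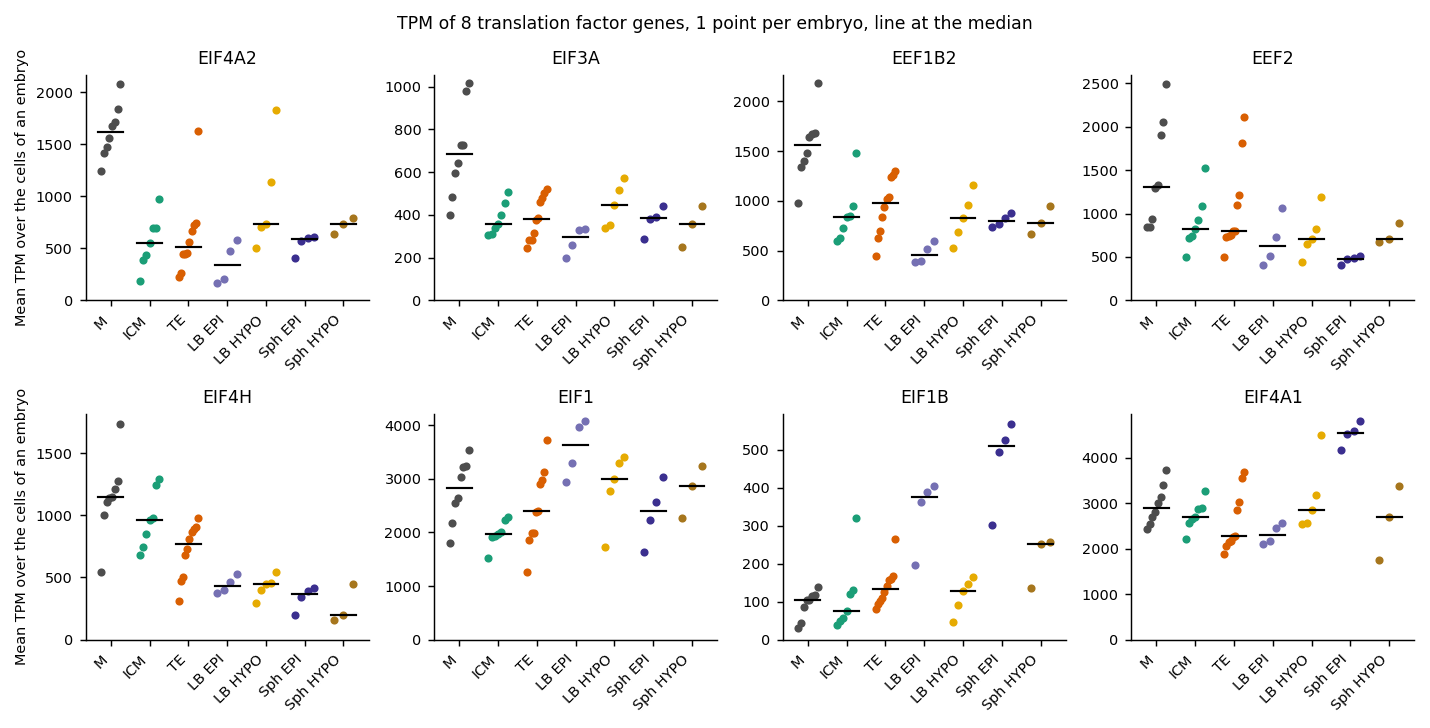
Mean TPM over the cells of each embryo (vertical axis, linear, from 0) for 8 of the genes in the 7 cell type labels, with 1 point per embryo and label and a black line at the median. EIF4A2, EIF3A and EEF1B2 were higher in M than in ICM, and EIF4H had its lowest values in the later labels. EIF4A1 and EIF1B had their highest medians in Sph EPI, with embryos at 4170.3 to 4812 and 301 to 567.6 TPM. Some embryos of other labels lay inside these ranges.

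No factor was called between the early blastocyst lineages. In ICM against TE, edgeR called 0 of 38 genes, against 5.88% of all genes. At an unadjusted p of 0.05 in edgeR there were 0 of the 38, beside 3041 of all 14721. DESeq2 and limma also called 0, against 8.48% and 4.96%. EIF4G3 was called within the first 4 library pools, where 0.875% of all genes were, and 0 members within the last 4. With the embryo as a block, since 7 embryos gave both ICM and TE cells, the count of members stayed 0, while that of all genes was 200 against 865 in the fit without it. EIF4A1 was at 2218 to 3278 (median 2707) TPM in ICM and 1880.1 to 3687 (median 2271) TPM in TE, with a log2 fold change of 0.02 (SE 0.16). The log2 fold changes of the 30 genes with a median of at least 10 TPM lay between -0.58 and 0.90. The count was also 0 without embryo E6-ER. These values do not show that the lineages had the same levels, as standard errors of these genes reached 1.22.

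The next comparisons followed the pluripotent cells from ICM to LB EPI to Sph EPI. In ICM against LB EPI, 3 of 38 genes were called, against 5.13% of all genes: EIF4H was higher in ICM (1.26% of all genes were called in that direction) and EIF1B and EIF1 were higher in LB EPI (3.87%). DESeq2 and limma called 6 each, against 9.97% and 10.4% of all genes. In LB EPI against Sph EPI only EIF4A1 was called, higher in Sph EPI, against 0.143% of all genes in either direction and 0.0408% in that direction. DESeq2 called EIF4A1 too, against 4.01%, and limma EIF4A1 and EIF3L, against 4.74%. In ICM against Sph EPI, a comparison added after the data were seen, which shares its embryos with the other 2, EIF1B and EIF4A1 were called higher in Sph EPI and EIF4H higher in ICM, against 7.57% of all genes, 5.65% higher in Sph EPI and 1.92% in ICM. DESeq2 and limma called these and 1 more each, EIF4G1 and EEF2K, against 11.5% and 13.5% of all genes.

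EIF4H, an RNA-binding partner that stimulates the helicase, was at 547 to 1738 (median 1144) TPM in M, 678 to 1294 (median 959.7) TPM in ICM and 308 to 981 (median 766) TPM in TE embryos. It was at 531, 463, 376 and 403 TPM in LB EPI and 445, 397, 540.4, 455 and 292 TPM in LB HYPO. Sph EPI embryos were at 391.7, 419, 195 and 346 TPM and Sph HYPO embryos at 200.4, 162 and 449 TPM. Every ICM embryo lay above every LB EPI and Sph EPI embryo, where 6.41% and 9.84% of all genes did not overlap. The log2 fold change was 1.06 (SE 0.31) in ICM against LB EPI, adjusted p = 0.0365, and 1.25 (SE 0.31) in ICM against Sph EPI, adjusted p = 0.0105. The first of these calls was lost on leaving out ICM embryo AE, AF, AG or AI or any of the 4 LB EPI embryos, at adjusted p from 0.0516 to 0.0882, and with no filter on low values, at 0.0579, and was 1.16 and 0.76 on the log2 scale within the first and last 4 pools, with adjusted p of 0.0593 and 0.206. The second was 1.44 and 0.88 in these pools, with adjusted p of 0.015 and 0.149.

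EIF1, which keeps the scanning ribosome from starting at wrong codons, was at 1797 to 3528 (median 2835) TPM in M, 1531 to 2293 (median 1973) TPM in ICM and 1268 to 3715 (median 2395) TPM in TE embryos. It was at 4068, 3961, 3284 and 2944 TPM in LB EPI and 1726, 2777, 3399, 3285 and 2988 TPM in LB HYPO. In Sph EPI it was at 3035, 2221, 1640.1 and 2564 TPM and in Sph HYPO at 2269, 2859 and 3236 TPM. The 4 LB EPI embryos were all above the 7 ICM embryos, where 6.41% of all genes did not overlap. The log2 fold change in ICM against LB EPI was -0.83 (SE 0.25), adjusted p = 0.0454. This call, just inside the threshold, was lost on leaving out any 1 embryo of either label other than ICM embryo AA, at adjusted p up to 0.107, and among all 7 labels EIF1 was not called (adjusted p = 0.0916). Within the first and last 4 pools the log2 fold change was -0.94 and -0.79, with adjusted p of 0.0763 and 0.155.

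EIF1B, a close relative of EIF1, was at 31.7 to 139.6 (median 104) TPM in M, 39.2 to 319 (median 74.3) TPM in ICM and 79.9 to 264 (median 133) TPM in TE embryos. It was at 390.0, 195, 363 and 404 TPM in LB EPI and 567.6, 524, 301 and 495 TPM in Sph EPI, against 146, 129, 90.3, 165 and 47.2 TPM in LB HYPO and 251, 136 and 258 TPM in Sph HYPO. The epiblast embryos were above the hypoblast embryos of the same stage without overlap, where 9.12% of all genes did not overlap at LB and 15.7% at Sph. ICM embryo AD, at 319 TPM, was the one ICM embryo inside the epiblast ranges. The log2 fold change was -1.65 (SE 0.46) in ICM against LB EPI, adjusted p = 0.0295, and -2.32 (SE 0.46) in ICM against Sph EPI, adjusted p = 0.00131, and without ICM embryo AD it was -2.12 and -2.80. The call against LB EPI was lost without ICM embryo AC, AF or AI or LB EPI embryo AP or AQ, at adjusted p from 0.0576 to 0.0701, in a fit of those labels alone, at 0.105, and in limma, at 0.154, and it was -1.67 and -1.64 within the first and last 4 pools (adjusted p of 0.0782 and 0.282). Within the first and last 4 pools the change against Sph EPI was -2.48 and -2.20, with adjusted p of 0.00763 and 0.165.

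EIF4A1, the main helicase of eIF4F by level and the gene with the highest median TPM of the 38, was at 2437 to 3731 (median 2905) TPM in M embryos. It was at 2452, 2095, 2169 and 2563 TPM in LB EPI and 3191, 2855, 2533, 2561 and 4507 TPM in LB HYPO. The spherical embryos were at 4170.3, 4595, 4812 and 4514 TPM in Sph EPI and 1747, 2689 and 3379.6 TPM in Sph HYPO. All 4 Sph EPI embryos were above every embryo of every other label except LB HYPO embryo AP, which was at 4507 TPM. Of all genes, 8.08% did not overlap between Sph EPI and LB EPI, 9.84% against ICM and 15.7% against Sph HYPO. The other 6 labels overlapped one another, and EIF4A1 was not called in M against ICM or TE, in ICM against TE or in ICM against LB EPI. The log2 fold change was -1.19 (SE 0.23) in LB EPI against Sph EPI, adjusted p = 0.00981, and -0.98 (SE 0.20) in ICM against Sph EPI, adjusted p = 0.00135. The first was lost without LB EPI embryo AO (adjusted p = 0.057) or Sph EPI embryo C (0.0612) and was -1.23 and -1.06 within the first and last 4 pools (adjusted p of 0.167 and 0.0722), whereas the second passed within both, at -1.03 (adjusted p = 0.027) and -1.08 (adjusted p = 0.00562).

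**Figure D3:**
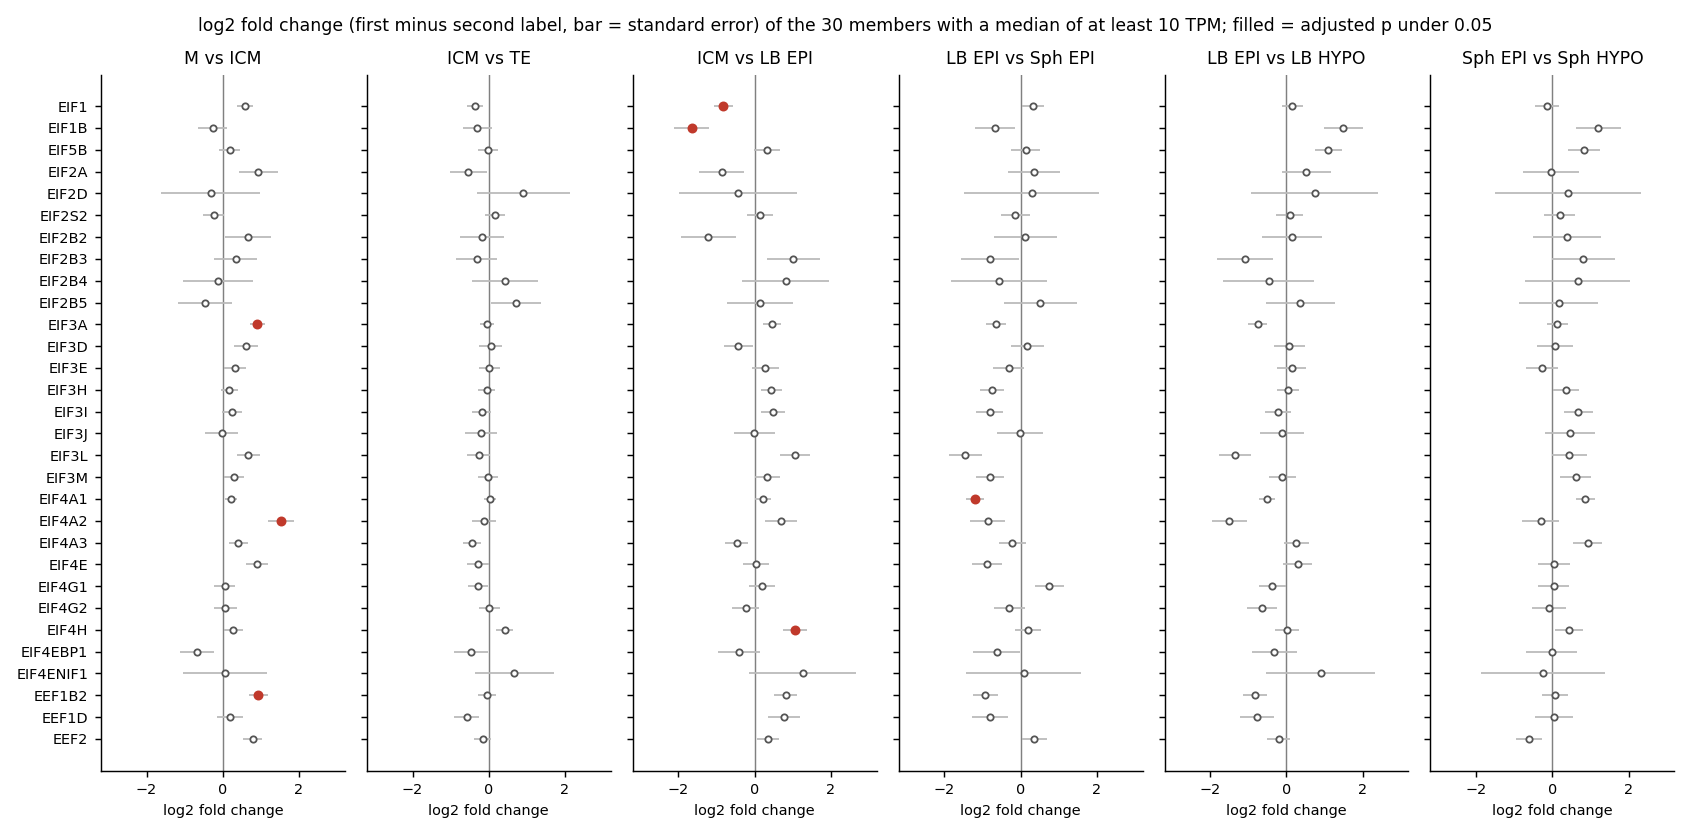
log2 fold change of the 30 genes with a median of at least 10 TPM (rows) in 6 comparisons (panels), as the first minus the second label, from the edgeR fit, with bars of 1 standard error and filled points for an adjusted p under 0.05. The filled points are EIF3A, EIF4A2 and EEF1B2 in M against ICM, EIF1, EIF1B and EIF4H in ICM against LB EPI, and EIF4A1 in LB EPI against Sph EPI.

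Epiblast and hypoblast of the same stage were compared last. In LB EPI against LB HYPO, edgeR called 0 of 38 genes, against 1.15% of all genes. At an unadjusted p of 0.05 in edgeR there were 9 of the 38, beside 2707 of all 14721. DESeq2 called 7 of the 38 there (EEF1B2, EIF1B, EIF2AK2, EIF3A, EIF3L, EIF4A2 and EIF5B), against 7.92% of all genes, and limma 5 (EEF2K, EIF3L, EIF4A2, EIF4E3 and EIF5B), against 8.71%. In Sph EPI against Sph HYPO edgeR and DESeq2 called 0 of 38, against 0.645% and 8.92% of all genes, and limma called EEF2K and EIF4A1, against 9.2%. Here 3 of the 38 were at an unadjusted p of 0.05 in edgeR, beside 2048 of all 14721. Whether the difference between epiblast and hypoblast itself changed from LB to Sph was tested as an interaction. In it edgeR called 0 of 38 genes against 0.034% of all genes, with 3 of the 38 at an unadjusted p of 0.05, beside 1359 of all 14721. DESeq2 and limma each called EIF4A1 alone there, against 4.87% and 3.24% of all genes. Its interaction was -1.37 on the log2 scale in edgeR (SE 0.33, adjusted p = 0.176). Without Sph HYPO embryo F, edgeR called EIF4A1 both in Sph EPI against Sph HYPO and in the interaction.

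EIF5B, the subunit joining GTPase, was at 75.1 to 96.6 TPM in LB EPI against 34.2 to 39.7 TPM in LB HYPO, and at 52.7 to 80.9 TPM in Sph EPI against 28.5 to 44.3 TPM in Sph HYPO. Its epiblast embryos lay above the hypoblast embryos at both stages, as happened for 9.12% of all genes (in either direction) at LB and 15.7% at Sph. The log2 fold changes were 1.10 (SE 0.36, adjusted p = 0.131) and 0.84 (SE 0.42, adjusted p = 0.362), neither called by edgeR. EIF5B was called over the 7 labels (adjusted p = 0.00136), with median TPM of 111 in M and 104 in TE.

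EIF3L, an outer eIF3 subunit, was at 437 to 811 (median 579.6) TPM in M, 266 to 484 (median 408) TPM in ICM and 84.3 to 799 (median 411) TPM in TE embryos. It was at 150.3, 229, 142 and 189.7 TPM in LB EPI and 339.7, 422, 423, 271 and 935 TPM in LB HYPO. At the spherical stage the values were 410.5, 424, 518 and 501 TPM in Sph EPI and 301, 398 and 352 TPM in Sph HYPO. The LB EPI label had the lowest median, and its embryos overlapped neither ICM, LB HYPO nor Sph EPI, as for 6.41%, 9.12% and 8.08% of all genes. The log2 fold changes were 1.06 (SE 0.39) in ICM against LB EPI, -1.35 (SE 0.41) in LB EPI against LB HYPO and -1.46 (SE 0.43) in LB EPI against Sph EPI, with adjusted p of 0.091, 0.103 and 0.27, while over the 7 labels EIF3L was called (adjusted p = 0.0233). That last call was lost without LB EPI embryo AN, AP or AQ, at adjusted p of 0.0781, 0.0707 and 0.0559, and within the last 4 pools, at 0.0867.

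None of the other eIF3 genes was called by edgeR over the labels or in a pair of them. EIF3H, the one with the highest median TPM, was at 703.9 to 1333 (median 912) TPM in M, 601 to 1302 (median 927) TPM in ICM and 454 to 1423 (median 851) TPM in TE embryos. It was at 570.2, 603, 706.4 and 755 TPM in LB EPI and 556, 645, 595, 682 and 439 TPM in LB HYPO. Sph EPI embryos were at 1003, 924, 853 and 840.1 TPM and Sph HYPO embryos at 828, 853 and 627 TPM. Sph EPI embryos lay above LB EPI embryos, where 8.08% of all genes did not overlap. The log2 fold change was -0.74 (SE 0.31) in LB EPI against Sph EPI, adjusted p = 0.366. For EIF3D, EIF3E, EIF3I, EIF3J and EIF3M the ratio of the highest to the lowest label median lay between 1.49 for EIF3M and 1.74 for EIF3D. Of the 9 eIF3 genes 8 had a positive log2 fold change in M against ICM, beside a median of 0.31 for the 9 and 0.09 over all genes.

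Among the delivery factors, EIF2S2, the beta subunit of eIF2, was among the genes of narrowest spread, with a coefficient of variation of 29.5% over the 41 sums, against 26.4% for EIF4A1 and 26.5% for EIF1. Its TPM was 970.0 to 1305 (median 1161) in M, 1193 to 1559.9 (median 1481) in ICM and 501 to 1896 (median 1312) in TE embryos. Epiblast embryos had 1470.1, 900.3, 1383 and 1424 (LB EPI) and 1055, 1125, 617 and 1934 (Sph EPI), and hypoblast embryos 537, 898, 1275, 1001 and 2009 (LB HYPO) and 383, 1143 and 1736 (Sph HYPO). All labels overlapped (adjusted p = 0.994 over the 7 labels). EIF2D, which can place initiator tRNA without GTP, was at 0 to 58.3 (median 34.97) TPM in M, 0 to 221 (median 9.71) TPM in ICM and 0 to 95.6 (median 10.4) TPM in TE embryos. It was at 52.3, 64.5, 61.4 and 72.4 TPM in LB EPI and 34.6, 10.96, 70.4, 35.6 and 10.5 TPM in LB HYPO. In Sph EPI it was at 66.1, 41.9, 34.8 and 43.8 TPM and in Sph HYPO at 77.0, 0 and 29.97 TPM. Its highest value, 221 TPM, was in ICM embryo AI, a sum of 1 cell, and edgeR did not call it over the labels (adjusted p = 0.995). EIF2A, an alternative carrier of initiator tRNA, had label medians between 107 TPM in ICM and 226 TPM in LB EPI.

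The eIF2B subunits EIF2B2 to EIF2B5, which exchange the nucleotide on eIF2, were not called in any comparison by edgeR, DESeq2 or limma. EIF2B2 was at 92.2 to 334 (median 267) TPM in M, 107 to 246 (median 144) TPM in ICM and 0 to 351 (median 206) TPM in TE embryos. It was at 704.03, 285, 223 and 341 TPM in LB EPI and 308, 256, 351, 263 and 384 TPM in LB HYPO. The spherical embryos were at 332, 268, 287 and 359 TPM in Sph EPI and 231, 358 and 150.0 TPM in Sph HYPO. Sph EPI embryos lay above ICM embryos (log2 fold change -1.10, SE 0.72, adjusted p = 0.382, in ICM against Sph EPI), where 9.84% of all genes did not overlap. EIF2B3 was at 91.5 to 284 (median 112) TPM in M, 80.6 to 174 (median 118) TPM in ICM and 7.39 to 323 (median 135) TPM in TE embryos. It was at 43.6, 84.9, 71.6 and 44.5 TPM in LB EPI and 152, 91.8, 79.6, 118 and 204 TPM in LB HYPO. At the spherical stage the values were 88.8, 127, 102 and 49.99 TPM in Sph EPI and 0.467, 113 and 45.3 TPM in Sph HYPO. LB EPI lay below LB HYPO but for LB EPI embryo AO and LB HYPO embryo AN, at -1.10 on the log2 scale (SE 0.74, adjusted p = 0.479). EIF2B4 and EIF2B5 had label medians of 7.08 to 24.05 TPM and 27.1 to 59.4 TPM.

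Of 4 eIF2 alpha kinases, which shut down initiation under stress, 3 were measured, and these were low and found in few cells. EIF2AK1, the haem-regulated kinase, had TPM above 1 in 59 cells, EIF2AK2, the kinase activated by double-stranded RNA, in 58 and EIF2AK3, the endoplasmic reticulum stress kinase, in 57. EIF2AK2 was at 0, 0.0574, 0.0442 and 0.0409 TPM in LB EPI and 0, 30.5, 0, 33.03 and 32.9 TPM in LB HYPO. Sph EPI embryos were at 4.28, 1.45, 13.3 and 3.38 TPM and Sph HYPO embryos at 0, 21.04 and 110.3 TPM. In single cells this was 0 of 25 LB EPI cells above 1 TPM, for which a limit of 3 counts allows a share of up to 12% and the exact 95% interval up to 13.7% if cells of an embryo are taken as separate, and 21 of 36 LB HYPO cells (58.3%, 95% interval 40.8% to 74.5%), then 6 of 48 Sph EPI cells (12.5%) and 10 of 12 Sph HYPO cells (83.3%). Embryo F gave 8 of the 12 Sph HYPO cells, and Sph HYPO embryo C was at 0 TPM. LB HYPO embryos AL and AN were at 0 TPM and overlapped LB EPI. edgeR called EIF2AK2 neither in LB EPI against LB HYPO (adjusted p = 0.157) nor in Sph EPI against Sph HYPO (0.601), DESeq2 called it in the first (adjusted p = 0.00189) and not in the second (0.658), and limma in neither (0.415 and 0.29). In the earlier labels it was at 0 to 15.1 (median 0.082) TPM in M, 0 to 74.1 (median 11.7) TPM in ICM and 0 to 103 (median 2.71) TPM in TE.

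EIF2AK3 was at 0.313 to 19.3 (median 7.88) TPM in M, 0 to 13.9 (median 0) TPM in ICM and 0 to 14.7 (median 0) TPM in TE embryos. It was at 0, 11.7, 12.8 and 0.171 TPM in LB EPI and 9.59, 9.49, 6.25, 4.28 and 1.51 TPM in LB HYPO. In Sph EPI it was at 3.49, 1.326, 0.0339 and 2.55 TPM and in Sph HYPO at 18.5, 18.7 and 6.18 TPM. The Sph HYPO embryos were above those of Sph EPI (edgeR adjusted p = 0.64), where 15.7% of all genes did not overlap. EIF2AK1 had label medians of 0 to 15.8 TPM and was above 1 TPM in 16.7% to 36.1% of the cells of a label. Neither kinase was called by edgeR over the 7 labels.

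**Figure D4:**
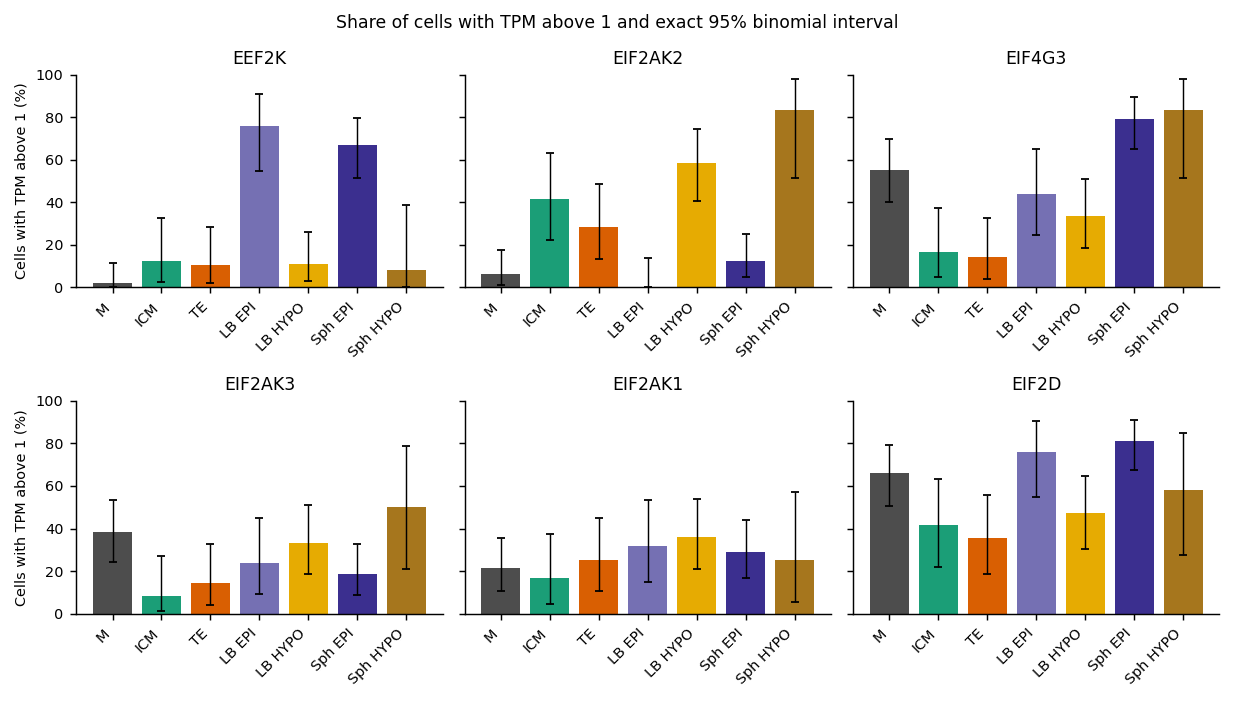
Share of cells with TPM above 1 (vertical axis, percent) in each label for 6 genes found in a part of the cells, with exact 95% binomial intervals that cover counting error only and treat the cells of an embryo as separate. EEF2K was above 1 TPM in 76% of LB EPI and 66.7% of Sph EPI cells and in at most 12.5% of the cells of the other labels, and EIF2AK2 in 0% of LB EPI cells and 83.3% of Sph HYPO cells.

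EEF2K, the kinase that inhibits EEF2 when calcium or energy stress signals reach it, had its higher levels in the epiblast labels. It was at 6.85, 7.9, 10.8 and 11.7 TPM in LB EPI and 0.626, 6.97, 9.49 and 5.63 TPM in Sph EPI, against 0, 0.205, 0, 1.95 and 0 TPM in LB HYPO and 0, 0 and 0.212 TPM in Sph HYPO. M embryos ranged up to 0.394 TPM, ICM up to 4.68 TPM and TE up to 7.82 TPM, each with a median of 0. The epiblast and hypoblast embryos did not overlap at either stage, as for 9.12% of all genes at LB and 15.7% at Sph. Nor did ICM and LB EPI, as for 6.41% of all genes. TPM above 1 was found in 19 of 25 LB EPI cells (76%, 95% interval 54.9% to 90.6%) and 32 of 48 Sph EPI cells (66.7%, 51.6% to 79.6%), against 4 of 36 LB HYPO, 1 of 12 Sph HYPO, 3 of 24 ICM, 3 of 28 TE and 1 of 47 M cells. These intervals take the cells of an embryo as separate and do not cover the spread between embryos. The call depended on the tool: on mean log2(TPM + 1), limma gave a difference of 2.47 in LB EPI against LB HYPO (adjusted p = 0.0016), 1.85 in Sph EPI against Sph HYPO (adjusted p = 0.0499) and -2.17 in ICM against LB EPI (adjusted p = 0.00278), while edgeR gave adjusted p of 0.436, 0.395 and 0.339 and DESeq2 0.513, 0.268 and 0.525 on the counts. Over the 7 labels edgeR gave an adjusted p of 0.0615. Median depth was 1870478 and 1660326 counts per cell in LB EPI and LB HYPO and 2235587 and 1988463 in Sph EPI and Sph HYPO.

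The eIF4E binding proteins were EIF4EBP1, which releases eIF4E when mTORC1 phosphorylates it, and EIF4ENIF1, which carries eIF4E into the nucleus. EIF4EBP1 was at 7.81 to 142 (median 106) TPM in M, 56.2 to 249 (median 164) TPM in ICM and 100.4 to 393 (median 235) TPM in TE embryos. It was at 176, 158, 311 and 223 TPM in LB EPI and 144, 269, 422, 294 and 212 TPM in LB HYPO. The spherical embryos were at 280.1, 237, 288 and 418 TPM in Sph EPI and 354, 196 and 417 TPM in Sph HYPO. M had the lowest median, and the log2 fold change of -1.14 (SE 0.43) in M against TE was not called by edgeR (adjusted p = 0.0842, and 0.0689 without embryo E6-ER), whereas DESeq2 (adjusted p = 0.000727) and limma (adjusted p = 0.0305) called it. EIF4ENIF1 was at 19.03 to 73.3 (median 25.7) TPM in M, 13.8 to 92.9 (median 26.003) TPM in ICM and 0 to 60.0 (median 17.96) TPM in TE embryos. It was at 7.85, 6.76, 40.8 and 9.41 TPM in LB EPI and 0, 9.4, 19.4, 12.8 and 0 TPM in LB HYPO. At the spherical stage the values were 7.7, 18.5, 17.7 and 14.3 TPM in Sph EPI and 0, 31.8 and 14.8 TPM in Sph HYPO, and the gene was called in no comparison.

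EIF4G3, a scaffold related to EIF4G1, was above 1 TPM in 55.3% of M, 16.7% of ICM, 14.3% of TE, 44% of LB EPI, 33.3% of LB HYPO, 79.2% of Sph EPI and 83.3% of Sph HYPO cells. Its TPM was 6.06 to 35.3 (median 12.6) in M, 0 to 11.7 (median 0) in ICM and 0 to 10.5 (median 0.0476) in TE embryos. Epiblast embryos had 77.6, 18.9, 11.7 and 39.3 (LB EPI) and 24.6, 30.7, 12.2 and 32.1 (Sph EPI), and hypoblast embryos 0, 11.7, 32.3, 5.03 and 82.6 (LB HYPO) and 152, 3.17 and 44.5 (Sph HYPO). ICM embryos overlapped neither epiblast label, where 6.41% (LB EPI) and 9.84% (Sph EPI) of all genes did not overlap. The gap was narrow, with the highest ICM embryo at 11.68 TPM and the lowest LB EPI embryo at 11.75 TPM. The edgeR adjusted p was 0.169 against LB EPI and 0.215 against Sph EPI. Over the 7 labels EIF4G3 was called at an adjusted p of 0.0467, a call kept in 19 of 48 alternatives. EIF4G1, the main scaffold, had label medians of 94.8 TPM in Sph HYPO to 258 TPM in TE, and EIF4G2, a scaffold that lacks the eIF4E binding region, of 1003 TPM in TE to 1929.8 TPM in LB HYPO. EIF4G1 was at 72.5 to 111 TPM in Sph EPI, below all ICM and LB EPI embryos, differences that edgeR did not call. Of all genes, 9.84% and 8.08% did not overlap there. In Sph HYPO it was at 44.6 to 147 TPM.

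Within families, TPM allowed levels to be set side by side per length. EIF4A1 was above EIF4A2 in all 41 sums, and EIF4A3, a helicase of the exon junction complex, had label medians of 106 to 178 TPM. EIF4A2 per EIF4A1 was 0.419 to 0.692 in M, 0.0568 to 0.361 in ICM and 0.0718 to 0.711 in TE embryos, with medians of 0.532, 0.241 and 0.221. M and ICM did not overlap. In an exact two-sided permutation test on log2 ratios the difference was 1.56 in M against ICM (p = 0.000311, adjusted over 24 tests of 3 ratios 0.00746) and 1.38 in M against TE (adjusted p = 0.0132 in the exact permutation test, and 1.22 with adjusted p = 0.0237 without embryo E6-ER). The later medians of this ratio were 0.154 (LB EPI) and 0.125 (Sph EPI) in epiblast and 0.292 (LB HYPO) and 0.272 (Sph HYPO) in hypoblast. The ratios were chosen after the values were seen.

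EIF1B per EIF1 was 0.0203 to 0.143 in ICM, 0.0493 to 0.137 in LB EPI and 0.184 to 0.236 in Sph EPI embryos. Sph EPI was above every embryo of the other labels, and the exact permutation test gave a log2 difference of -2.17 in ICM against Sph EPI, with an adjusted p of 0.0364. EIF4G2 per EIF4G1 was 1.501 to 8.86 in ICM and 11.4 to 23.6 in Sph EPI embryos without overlap, a log2 difference of -1.48 with an adjusted p of 0.0364 in the exact permutation test. This ratio was not particular to epiblast: in Sph HYPO it was 11.7 to 24.5, with a median of 20.1 beside 14.9 in Sph EPI. Its medians in M, TE, LB EPI and LB HYPO were 7.62, 4.25, 6.73 and 10.1. No other of the 24 tests passed, and 4 embryos against 3 cannot give a p under 0.0571. Only uniquely mapped reads were kept by the authors, and how reads of near-identical stretches of EIF4A1 and EIF4A2, or of EIF1 and EIF1B, were split was not tested, so that these ratios are uncertain as absolute values.

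**Figure D5:**
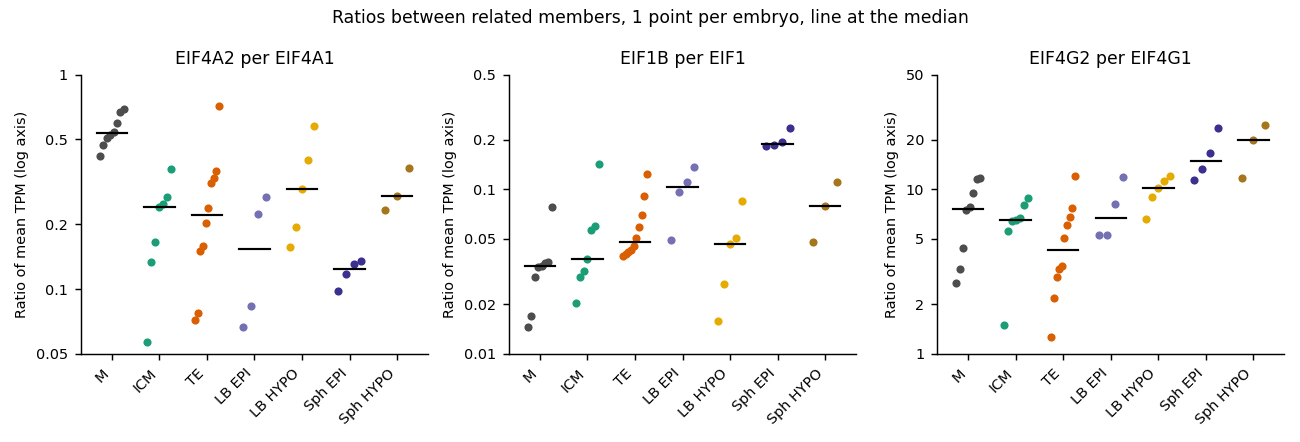
Ratio of mean TPM of 2 related genes (vertical axes, log scale) in each label, with 1 point per embryo and label and a line at the median. EIF4A2 per EIF4A1 was at least 0.419 in the M embryos and at most 0.361 in the ICM embryos, and EIF1B per EIF1 and EIF4G2 per EIF4G1 were higher in Sph EPI than in ICM without overlap. EIF4G2 per EIF4G1 was at 11.7 to 24.5 in Sph HYPO as well.

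Genes that work beside these factors were counted in the same fits. Among the 38, 7 belong to mRNAs known to begin with a 5' terminal oligopyrimidine (TOP) tract, whose translation mTORC1 controls; 3 of them (EEF1B2, EEF2 and EIF3L) were called over the 7 labels (42.9%, beside 37.7% of all genes). In M against ICM, EEF1B2 was called (14.3%, beside 2.74% of all genes), with all 7 on the M side at a median of 0.67, beside 0.09 over all genes. Of 25 cytosolic ribosomal protein genes with a symbol, 9 were called over the labels (36%, beside 37.7% of all genes). In LB EPI against Sph EPI, 1 ribosomal protein gene, RPL5, was called higher in Sph EPI, and the median over the 25 was -0.78 beside -0.03 over all genes. Ribosomal protein genes have many near-identical copies, so these counts are uncertain.

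Of the 6 poly(A) and TOP binding genes measured, PAIP2 and PABPC4 were called over the labels (33.3%, beside 37.7% of all genes). PAIP2, an inhibitor of poly(A)-binding protein, was higher in LB EPI than in LB HYPO (1418 to 2029 TPM against 375 to 822 TPM, log2 fold change 1.45, SE 0.37, adjusted p = 0.0352). At the spherical stage the 2 labels overlapped, at 1149 to 1471 TPM in Sph EPI and 1179 to 1556 TPM in Sph HYPO (log2 fold change 0.004, SE 0.42, adjusted p = 1). PAIP2 was also higher in ICM than in TE (log2 fold change 1.15, SE 0.27, adjusted p = 0.0102). PABPC4, a poly(A)-binding protein, was higher in M than in TE (2.18 on the log2 scale, SE 0.46, adjusted p = 0.00551), as was PAIP2 (1.25, SE 0.26, adjusted p = 0.00529). Without embryo E6-ER these 3 differences from TE were 1.11 for PAIP2 in ICM, 2.07 for PABPC4 and 1.21 for PAIP2 in M, with adjusted p of 0.0116, 0.00683 and 0.00569. Of 15 measured genes of mTORC1 and its inputs only RRAGD, a GTPase that tells mTORC1 of amino acids, was called over the labels (6.67%, beside 37.7% of all genes), at 86.6 to 187 TPM in the 8 epiblast sums and at most 2.68 TPM in any other.

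Of 5 integrated stress response genes PPP1R15A, which reverses eIF2 alpha phosphorylation, and ASNS, asparagine synthetase, were called over the labels (40%, beside 37.7% of all genes). ASNS was lower in M than in ICM (0 to 41.1 TPM against 29.6 to 329.5 TPM, log2 fold change -3.14, SE 0.85, adjusted p = 0.034) and than in TE (-2.61, SE 0.79, adjusted p = 0.0445, and 0.0499 without embryo E6-ER). Of 5 termination and recycling genes HBS1L was called over the labels (20%, beside 37.7% of all genes, adjusted p = 0.0187) and none in a pair of labels. Neither the 7 mitochondrial translation factors nor the 1 reinitiation gene measured, DENR, was called in any comparison by edgeR.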

How the data were processed

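Pig embryo cells were sequenced one by one (Smart-seq2, Nextera XT). Reads were trimmed, aligned with HISAT2 2.1.0 to the Sus scrofa genome and counted over Ensembl genes with HTSeq, keeping uniquely mapped reads, and cells of low depth or high mitochondrial share had been removed. The authors deposited a table of read counts per gene and cell and a table of TPM values made from the counts, both used here. Symbols came from a table of Ensembl pig identifiers, which named 11437 of the 22840 entries, beside 16 entries that the authors had added.

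Counts were summed per embryo and label, leaving out 1 M cell whose identifier gave no embryo, and levels are means of TPM over the cells of an embryo. Genes with TPM above 1 in at least 3 cells were tested with edgeR 4.0.16 (TMM scaling, quasi-likelihood F test, R 4.3.3) in 1 fit of the 7 labels, with Benjamini-Hochberg adjustment over all 14721 genes and a threshold of 0.05. SE is the log2 fold change divided by the root of F. Log2 fold changes above 0 mean more in the first-named label. Alternatives used DESeq2 1.42.0, limma 3.58.1 on mean log2(TPM + 1), library size scaling, no filter, only the labels compared, sums of at least 2 cells, either 4 of the 8 library pools, the embryo as a block, and each sum left out in turn. By the rule for named genes, values are given in full for EIF4A1, for the gene of highest median TPM and the gene of largest ratio between labels in each role, and for up to 5 called genes per comparison; paralogues are set side by side, and up to 3 genes of a pathway list are named. The steps were run on simulated data with large changes only, so recovery of changes of the smaller sizes seen here was not tested. The members and lists were chosen with earlier results of these data known.

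Same-lettered cells come from the same embryo, so embryos pair ICM with TE (7 pairs) and epiblast with hypoblast (3 pairs at each stage). The median correlation of same-embryo deviations over 5363 genes was 0.054 for ICM and TE, 0.01 for LB and 0.054 for Sph, and the block did not change the count of members called. Embryos of a label are taken as separate animals, but parentage was not given in the sources used here. Intervals cover counting error only.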

Additional observations from a re-analysis of the deposited data

Results flagged for a closer look

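In groups of 4 to 10 embryos, the highest or lowest embryo of a label stood far from the rest of its label in 15 of 120 pairs of gene and label tested over 20 genes. With normally spread values chance flags about 1 in 20 groups, and several of these genes were at or near 0 in most embryos.

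ICM embryos gave 5 of these, 4 of them in AD and AI, which are sums of 1 cell. EIF1B was at 319 TPM in ICM embryo AD with the next ICM embryo at 129.6 TPM, and EEF1B2 was at 1481 TPM in the same embryo with the next at 952 TPM. EIF2D was at 221 TPM in ICM embryo AI with the next at 48.8 TPM, and EEF2K at 4.69 TPM in the same embryo with the next at 0.692 TPM. EIF2AK3 was at 13.9 TPM in ICM embryo AE, with the next at 0.661 TPM.

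In TE, EIF4A2 was at 1627 TPM in embryo AI with the next at 744 TPM, EIF1B was at 264 TPM in embryo AB with the next at 167 TPM, and EIF2AK2 was at 103 TPM in embryo AF, a sum of 1 cell, with the next at 37.4 TPM. In M, EIF2B2 was at 92.2 TPM in embryo V with the next at 223 TPM, EIF2AK2 was at 15.1 TPM in embryo X with the next at 5.58 TPM, and EEF2K was at 0.394 TPM in embryo T with the next at 0.016 TPM.

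In the late blastocyst, EIF2S2 was at 900.3 TPM in LB EPI embryo AO with the next at 1383 TPM, and EIF4ENIF1 was at 40.8 TPM in LB EPI embryo AP with the next at 9.41 TPM. EIF3L was at 935 TPM in LB HYPO embryo AP with the next at 423.5 TPM, and EEF2K was at 1.95 TPM in LB HYPO embryo AO with the next at 0.205 TPM.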

How the results depend on the processing

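No call in the comparisons changed direction. Across alternatives, 220 values of a gene called in a pair of labels stayed past the threshold and 57 did not, and over the 7 labels 587 did and 36 did not. EIF5B, EIF3A, EIF1B, EIF4A2, EEF1B2, EIF4A1, EEF2, EIF4H and EIF4E kept the call over the 7 labels in all 48 alternatives, EIF4G3 in 19. The count of genes called over the 7 labels was 10 to 16.

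The counts of the 38 that moved by more than 1.5 times were as follows. With DESeq2, ICM against LB EPI gave 6, LB EPI against LB HYPO 7 and the interaction 1. With limma these gave 6, 5 and 1, LB EPI against Sph EPI gave 2 and Sph EPI against Sph HYPO 2. Sums of at least 2 cells gave 2 in LB EPI against Sph EPI and 1 in LB EPI against LB HYPO (0.251% and 1.47% of all genes). The first 4 library pools gave 1 in ICM against TE (EIF4G3), 1 in ICM against LB EPI, 0 in LB EPI against Sph EPI, 1 in LB EPI against LB HYPO and 0 in M against TE (0.875%, 2.18%, 0.0752%, 0.683% and 0.273% of all genes, in this order). The last 4 pools gave 1 in M against ICM, 0 in ICM against LB EPI, 0 in LB EPI against Sph EPI, 1 in M against TE and 1 in ICM against Sph EPI (0.486%, 0.951%, 0.116%, 0.602% and 1.57%). Either set of pools holds fewer embryo sums, and for the other settings the cause was not tested. Leaving out 1 embryo gave 11 to 15 over the 7 labels, 2 to 4 in M against ICM, 0 to 3 in ICM against LB EPI, 0 to 1 in LB EPI against Sph EPI, 0 to 1 in Sph EPI against Sph HYPO, 0 to 1 in the interaction, 3 to 5 in M against TE, 3 in ICM against Sph EPI, and 0 in ICM against TE and in LB EPI against LB HYPO. The shares of all genes called in fits without 1 embryo, here and above, are not given. Whether these counts moved with the shares cannot be told.

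With the embryo as a replicate block the members called stayed 0 in ICM against TE, 0 in LB EPI against LB HYPO and 0 in Sph EPI against Sph HYPO, and it changed no other call. Over all genes the block gave 200, 50 and 73 calls, against 865, 170 and 95 without it. DESeq2 called 1005 genes in M against ICM against 404 in edgeR, 479 against 21 in LB EPI against Sph EPI, 1051 against 170 in LB EPI against LB HYPO, 1108 against 95 in Sph EPI against Sph HYPO and 616 against 5 in the interaction, and limma called 762, 698, 1282, 1354 and 477. Over all genes the median log2 fold change in Sph EPI against Sph HYPO was 0.56 in edgeR with TMM, 0.55 in edgeR without it and 0.22 in DESeq2. Directions of low differences there may thus depend on the tool, and the cause was not tested. Medians over cells moved 7 levels by more than 1 SD and left 133 within it, and a threshold of 5 TPM moved 17 shares outside their interval and left 249 within it.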
